A study of Mus musculus with 2 samples.

Results

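Caspases are cysteine proteases that are made as inactive precursors and cut their targets after aspartate residues. The inflammatory caspases are switched on by inflammasomes, or by bacterial lipopolysaccharide in the cytosol, and release interleukin 1 family cytokines and open gasdermin pores. The apoptotic caspases work in a cascade, in which initiators activated on adaptor platforms cut executioners, and the executioners take the cell apart. In T cells the apoptotic branch downstream of the death receptor Fas limits the life of activated cells, and caspase 8 is also needed for their expansion. Transcript levels of 7 mouse caspase genes were read here in stimulated CD4 T cells that carried or lacked Menin. Menin, encoded by Men1, is a nuclear protein that binds MLL-type methyltransferases of histone H3. They comprised 3 inflammatory genes (Casp1, Casp4 and Casp12) and 4 apoptotic genes (Casp2, Casp8, Casp9 and Casp6), out of 18430 named genes with a probe on the arrays.

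The genes were selected by name from the non-control probes whose transcript belongs to them, with the measured differences between these arrays already known. Their differences are therefore descriptions, and no test supports the choice. All 7 had exactly 1 named probe, printed once per array. Of the 7, 6 were well above background on both arrays, and Casp12 on the KO array only.

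One array held RNA of Menin WT cells and the other RNA of Menin KO cells, 1 sample each. Both came from the spleen of female animals of the strain C57BL/6J and began as naive CD4 T cells. The cells received immobilized anti-TCR-β (3 µg/ml) plus anti-CD28 (1 µg/ml) and IL-2 (2.5 ng/ml) over 2 days, and then IL-2 without the antibodies over 3 more. How Menin was deleted, the age of the mice, and whether cells of several mice were pooled are not given in the sources used here. With 1 array per genotype there are no replicates, so no difference has a p-value and an exact test was not possible. In a bulk sample, fewer cells that express a gene and less of its RNA per cell cannot be told apart.

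Spots well above background made up 59.5% of the non-control ones in WT and 63.5% in KO. The 75th percentile, to which signals were scaled, was 644 and 650. Men1 itself read 1081 in WT and 459 in KO, 2.38-fold lower, and whether its probe lies in the deleted part is not known here. All 8 T cell markers listed were well above background on both arrays, with summed signals of 318766 (WT) and 253671 (KO), to which Thy1 added most. Of the 8, 7 were below 0 in KO, with a median log2 difference of -0.22. Cd5 was past the 2-fold limit, with 55133 in WT and 16739 in KO (3.32-fold lower), Cd247 was 1.91-fold lower, and Cd4 itself read 443 and 279 (log2 difference -0.68).

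The promoters of the inflammatory genes are shown because these genes sit side by side. In the order of RefSeq's gene table Casp1, Casp4 and Casp12 follow each other on chromosome 9 with no other protein-coding gene between them. The Casp6 promoter is shown beside them because Casp6 was the apoptotic member with the largest difference and its promoter has another base composition. Each line holds 200 bases, from 250 to 51 before the annotated start, taken from RefSeq on GRCm38.p6, plus strand, while the arrays were annotated on mm9. Capitals mark CpG dinucleotides. The windows are chr9:5298267-5298466 for Casp1, chr9:5308599-5308798 for Casp4, chr9:5345226-5345425 for Casp12 and chr3:129901165-129901364 for Casp6.
Casp1: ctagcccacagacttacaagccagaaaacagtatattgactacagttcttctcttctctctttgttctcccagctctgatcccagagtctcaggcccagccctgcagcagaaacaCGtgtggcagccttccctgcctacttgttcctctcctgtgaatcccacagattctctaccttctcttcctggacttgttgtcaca
Casp4: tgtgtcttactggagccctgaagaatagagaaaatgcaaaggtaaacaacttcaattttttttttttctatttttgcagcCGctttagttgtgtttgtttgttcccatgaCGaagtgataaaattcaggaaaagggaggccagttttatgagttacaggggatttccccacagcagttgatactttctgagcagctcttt
Casp12: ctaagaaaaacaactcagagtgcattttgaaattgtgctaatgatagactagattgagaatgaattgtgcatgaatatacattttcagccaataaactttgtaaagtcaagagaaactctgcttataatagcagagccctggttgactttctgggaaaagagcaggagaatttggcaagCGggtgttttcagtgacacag
Casp6: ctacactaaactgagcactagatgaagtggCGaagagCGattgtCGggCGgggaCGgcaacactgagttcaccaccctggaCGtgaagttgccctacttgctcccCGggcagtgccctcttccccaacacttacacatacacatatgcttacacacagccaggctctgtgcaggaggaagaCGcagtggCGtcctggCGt

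The stretches printed for the inflammatory genes hold 1 CpG (Casp1), 2 (Casp4) and 1 (Casp12), against 10 for Casp6. Over the whole window of 300 bases (250 before and 50 after the start), Casp1 and Casp12 had 3 CpG dinucleotides each and Casp4 had 5. The median over 32851 RefSeq windows was 7. Among the apoptotic genes, Casp6 had 16, Casp2 had 26 and Casp9 had 28, while Casp8 had 5. GC content was 48% for Casp1, 42% for Casp4 and 41% for Casp12. It was 62% for Casp6, 63.7% for Casp2, 66% for Casp9 and 42% for Casp8, with a median of 52.7% over all windows. Casp2 and Casp9 passed both a GC content above 50% and an observed-to-expected CpG ratio above 0.6, as did 33.3% of all windows. Casp6 passed the first only, with a ratio of 0.57. The Casp8 window lies inside the span of its gene, at a start downstream of the first one. Casp4 has a second annotated start with a window of nearly the same bases. The other windows belong to 1 start each. Casp1 and Casp6, both over 2-fold higher in KO, lay on opposite sides of both medians. Whether base composition bears on the differences between the arrays was not tested.

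**Figure D1:**
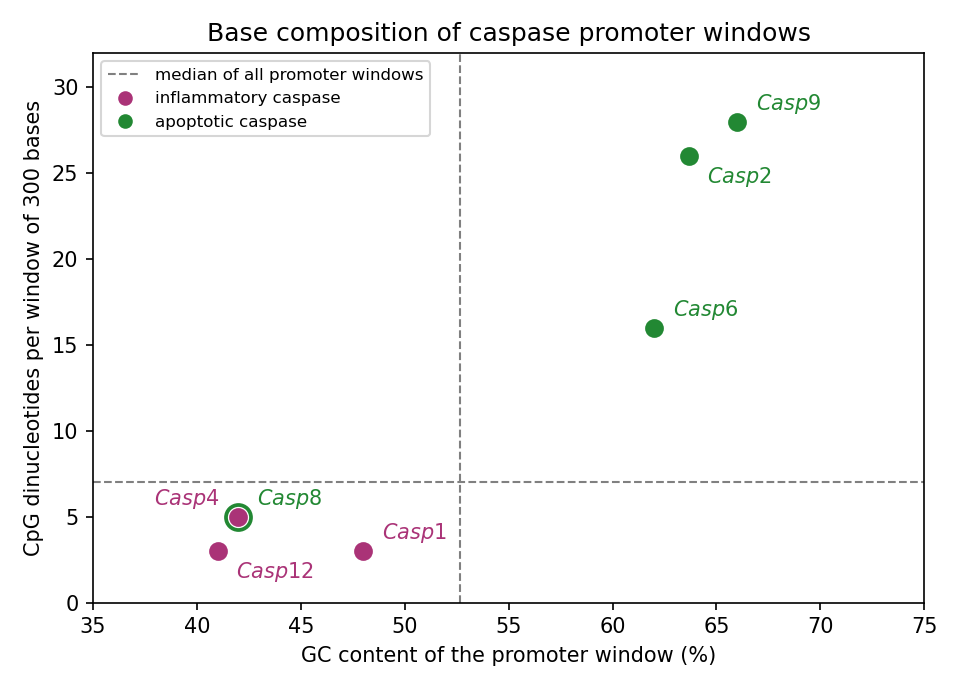
GC content (x axis, percent) and number of CpG dinucleotides (y axis) in the RefSeq promoter window of 300 bases of each of the 7 caspase genes, with dashed lines at the medians over all windows (52.7% and 7). The 3 inflammatory genes and Casp8, whose ring encloses the point of Casp4, lie below both medians, and Casp6, Casp2 and Casp9 above both.

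Letters of 4 motifs were searched in the same windows on both strands, N standing for any base. They were TGANTCA for AP-1 and Bach factors, GGGNNTTTC (GAAANNCCC on the other strand) for NF-kB, GAAANNGAA for interferon-responsive elements and TTCNNNGAA for STAT factors. They were chosen with the caspase sequences in view, and the matches reported here do not overlap each other. Casp4 held 2 NF-kB matches, which 4.36% of all windows have at least once. The first begins 93 bases before the start at chr9:5308748-5308772 and the second 13 bases before it at chr9:5308828-5308852, shown with the match in capitals and 8 bases on either side.
Casp4 upstream match: gagttacaGGGGATTTCcccacagc
Casp4 near match: atgctaagGAAATGCCCagtaactt

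Casp12 held 2 STAT matches, a motif found in 8.30% of windows. None of the 7 genes' windows held the AP-1 letters (7.81% of all windows) or the interferon letters (8.56%). Casp1, Casp2, Casp6, Casp8 and Casp9 matched none of the 4 motifs in these windows. A match is a run of letters, and binding was not measured.

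The caspases fell on both sides of 0. Casp1, Casp6 and Casp12 were at least 2-fold higher in KO, Casp4 and Casp9 were less than 1.5-fold higher, and Casp2 and Casp8 were lower by less than 2-fold. That makes 3 of 7 at least 2-fold higher and none at least 2-fold lower. Over the 13510 named genes with a value, 10.8% were at least 2-fold higher, 5.14% at least 2-fold lower and 15.9% were past the limit in either direction. Of all genes past the limit 67.8% were higher, a share that was 26.3% under another background correction, normexp on median signals. The members were chosen with this contrast known, so nothing is read from the comparison of these shares. The median log2 difference, KO minus WT, was 0.49 over the 7 members and -0.0053 over all named genes.

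**Figure D2:**
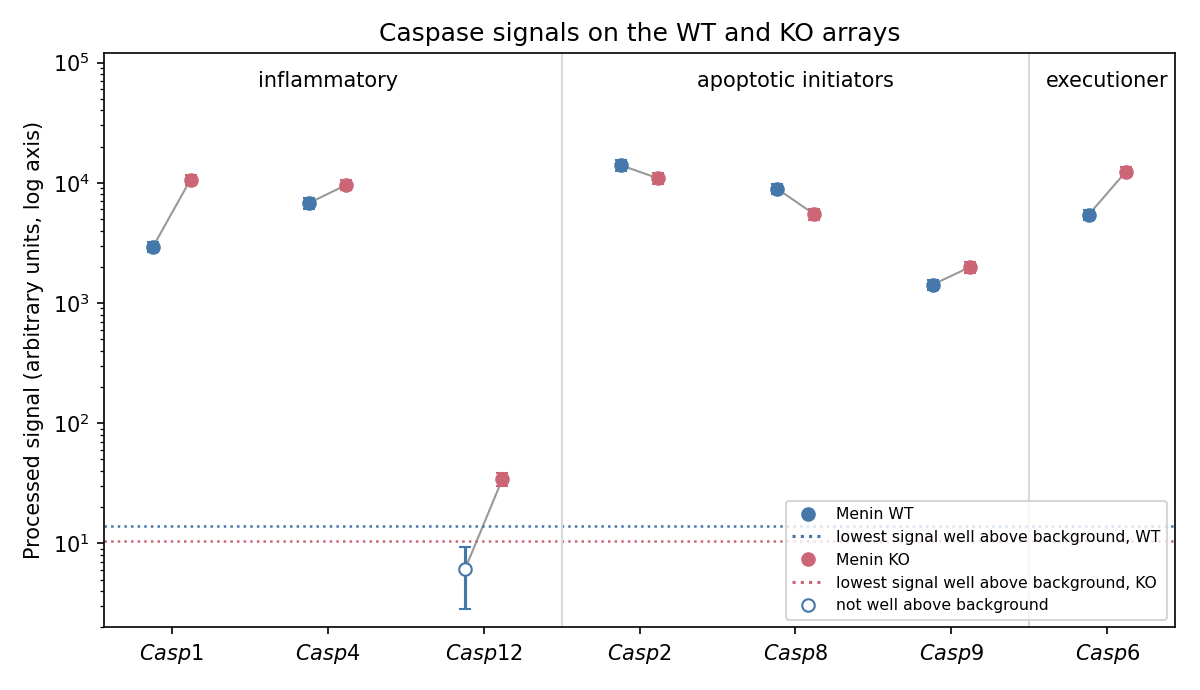
Processed signal (y axis, log scale) of each caspase on the WT and KO arrays, 1 spot per point, with bars for the error that the scanner software assigns to the spot and dotted lines at the lowest signal well above background (14.0 on WT, 10.4 on KO). Casp1, Casp12 and Casp6 are the genes at least 2-fold higher in KO, and Casp2 and Casp8 slope down. Heights of different genes come from different probes and are not comparable.

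Casp1, the caspase that matures interleukin 1 beta and interleukin 18, had the largest difference of the members measured on both arrays. Its signal was 2947 ± 295 in WT and 10627 ± 1063 in KO, where ± is the error that the scanner software assigns to the spot. KO was higher, and the intervals lie far apart. After scaling each array to its 75th percentile the gene was 3.57-fold higher in KO (log2 difference 1.84). It ranked 647th from the top among the 13510 genes, with 95.2% of them lower.

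The error to set beside such a difference was estimated in 2 ways. Carrying the software's spot errors through gave 0.20 on the log2 scale for each of the 6 members read well above background in WT and KO alike. The difference between the arrays varied between the spots of a probe printed several times with a pooled SD of 0.051 for signals of at least 100 (105 probes) and 0.22 for dimmer ones (33 probes). By the latter, the Casp1 difference was 35.8 technical SDs. Both leave out differences between mice, cultures, labelling reactions and hybridisations, which these arrays did not measure.

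Casp4, the mouse gene also called caspase 11, whose product senses cytosolic lipopolysaccharide, differed less. Its signal was 6772 ± 677 in WT and 9615 ± 962 in KO. It was 1.41-fold higher in KO (log2 difference 0.49), which is 9.60 technical SDs but below the 2-fold limit, and 80.1% of genes were lower in this ranking.

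Casp12, a relative of the inflammatory caspases often discussed in endoplasmic reticulum stress, was near the detection limit. Its processed signal was 6.08 ± 3.23 in WT, not well above background, and 34.2 ± 4.12 in KO. The raw median pixel signals were 62.0 over a local background of 46.5 in WT and 88.0 over 44.0 in KO. Set against the lowest signal well above background on the WT array, the gene was at least 2.42-fold higher in KO (log2 bound 1.28). Whether its probe also reads the related Casp1 or Casp4 transcripts was not tested. This call depended on the background correction: with normexp in which 6 spots of aberrant background were replaced, the bound was 0.26, and without that replacement no usable bound was left.

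The neighbourhood of these genes is thinly read by the arrays. The adjacent protein-coding genes on either side of the cluster, Gria4 and Pdgfd, were on neither array well above background. The nearest flanking genes that were read on both arrays were Msantd4 (log2 difference 0.20) and Dync2h1 (0.24). Both were chosen by position, and their differences were smaller than those of the caspases between them.

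Among the apoptotic initiators, Casp8, which is activated by death receptors through FADD, was lower in KO. Its signal was 8953 ± 895 in WT and 5477 ± 548 in KO. It was 1.65-fold lower (log2 difference -0.72, 14.1 technical SDs). It was the lowest of the members, and 9.33% of all genes were lower still. Next to it on chromosome 1 lies Cflar, which encodes the caspase 8 regulator FLIP and had a log2 difference of -0.023. The 2 measured genes that follow, Trak2 and Stradb, had differences of -0.48 and -0.57.

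Casp2, the caspase of the PIDDosome, was also lower in KO. Its signal was 13984 ± 1398 in WT and 10868 ± 1087 in KO, 1.30-fold lower (log2 difference -0.38). The spot-error intervals lie close together, and the difference of 0.38 compares with an error of 0.20 by the software's model and 0.051 between spots.

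Casp9, the initiator activated by the apoptosome, went the other way. Its signal was 1420.3 ± 142 in WT and 1990.1 ± 199 in KO, 1.39-fold higher (log2 difference 0.47). The initiators thus spanned -0.72 to 0.47, and all 3 stayed within the 2-fold limit.

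Casp6, an executioner whose known substrates include lamin A, was the apoptotic member past the limit. Its signal was 5403 ± 540 in WT and 12394 ± 1239 in KO. It was 2.27-fold higher in KO (log2 difference 1.18, 23.1 technical SDs), with 91.1% of all genes lower. The nearest member below the 2-fold limit was Casp4 at 0.49.

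**Figure D3:**
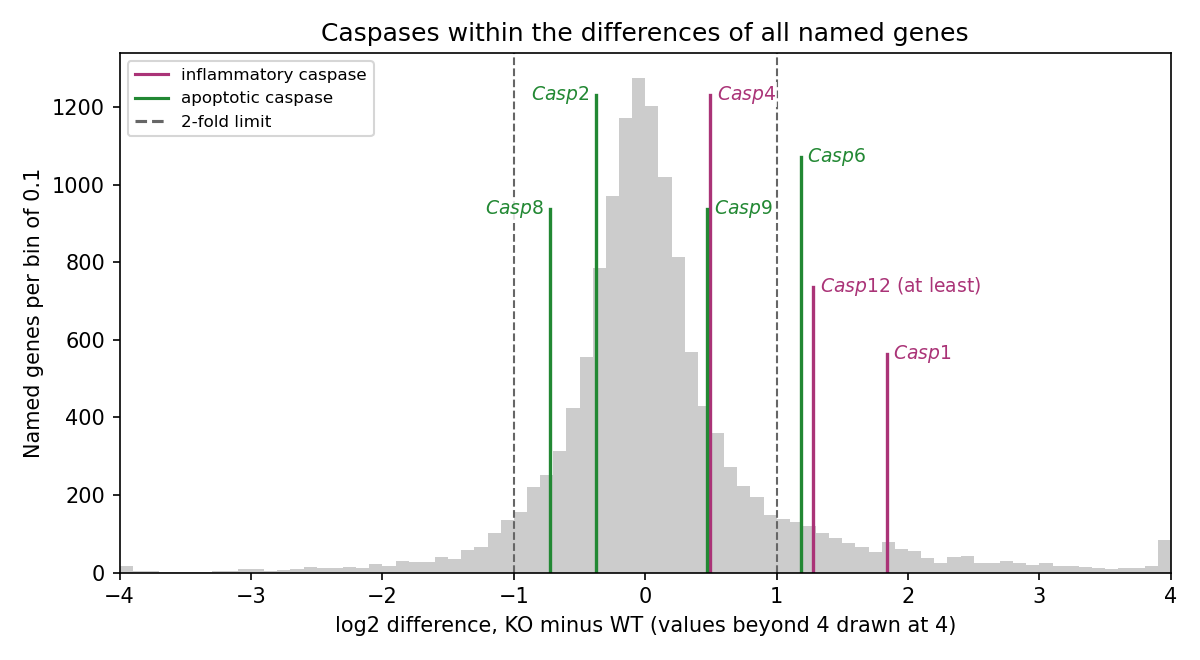
Histogram of the log2 difference, KO minus WT, over 13510 named genes (grey, bins of 0.1), with the 7 caspases as vertical lines whose heights carry no value and dashed lines at the 2-fold limit. Casp1 (1.84), Casp12 (at least 1.28) and Casp6 (1.18) lie beyond the upper limit, and no caspase lies beyond the lower one.

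Set against each other, the inflammatory members had a higher median difference than the apoptotic ones, but not every gene followed the medians. The medians of their log2 differences were 1.28 over 3 inflammatory genes and 0.049 over 4 apoptotic genes, 1.23 apart. All 3 inflammatory genes were above 0, and the apoptotic genes divided into 2 above and 2 below. The groups overlapped, because Casp6 lay above Casp4, and Casp9 (0.47) and Casp4 (0.49) were closer than the spread between spots. The inflammatory median is the Casp12 bound itself: the gap was 1.12 over genes well above background on both arrays, 0.42 after normexp with aberrant backgrounds replaced, and 1.79 with the measured Casp12 difference of 2.48 in place of the bound.

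**Figure D4:**
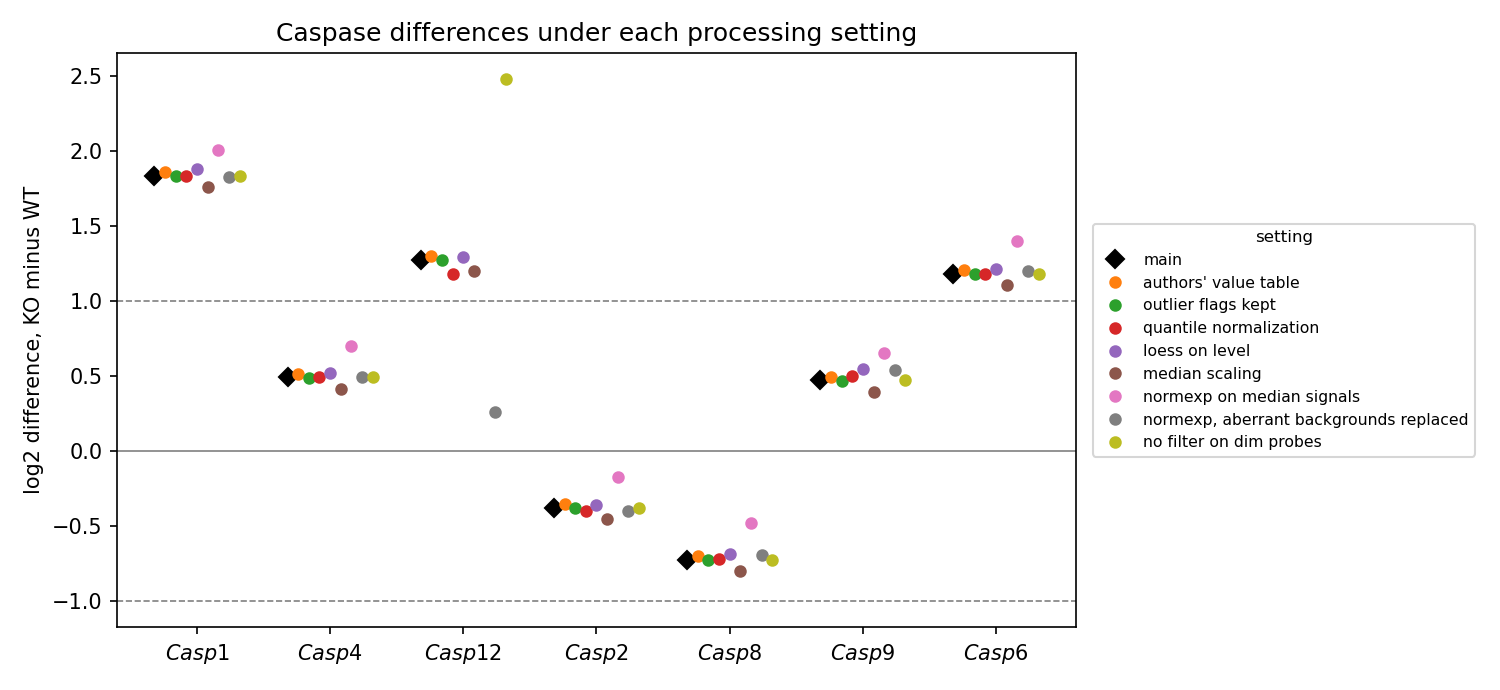
Log2 difference, KO minus WT (y axis), of each caspase under the main setting (black diamonds) and 8 other processing settings (coloured points), with dashed lines at the 2-fold limit. Casp1 and Casp6 stay above 1 and Casp2 and Casp8 below 0 in every setting drawn, while Casp12 ranges from 0.26 to 2.48 and has no point under normexp on median signals.

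The genes that act with the inflammatory caspases did not share 1 direction. Of 15 listed inflammasome sensors and adaptors, 13 had a named probe and 9 stood well above background on 1 array or both. Of these 9, 2 were at least 2-fold higher in KO, 1 was lower, 5 were within the limit and 1 gave only a bound below it, with a median of -0.020 beside -0.0053 over all genes. The adaptor gene Pycard (ASC), which links sensors to caspase 1, was higher in KO by less than 2-fold, with 28870.4 in WT and 37007 in KO (log2 difference 0.35, and 0.32 by its other probe). The sensor gene Nlrp3 was dim, with 47.6 in WT and 47.4 in KO (-0.020), and the DNA sensor gene Aim2 was on neither array well above background, nor were Nlrc4, Naip1 and Naip6. Naip5 had 48.3 in WT and 254 in KO (5.2-fold higher), and Naip2 had 324 and 1002 (3.07-fold higher). The Naip genes, which encode partners of NLRC4 in sensing bacterial flagellin and secretion systems, resemble each other closely in sequence, so their values are uncertain. Card6, a gene of the CARD family, had 2864 in WT and 995 in KO, 2.90-fold lower.

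Among 12 genes listed as substrates and outputs of inflammatory caspases, 10 stood well above background on 1 array or both. Of these 10, 2 were higher, none lower and 8 between (median 0.17). The 2 higher genes were Il1a and Gsdme, while Gsdmd and Il18 stayed within the limit. Gsdmd, the pore-forming gasdermin cut by caspases 1 and 11, was read by 10 spots, with 4487 in WT and 4142 in KO (log2 difference -0.13). Il18 had 118 in WT and 224 in KO over 10 spots, 1.89-fold higher. Il1b was on neither array well above background. Il1a, whose product is active without caspase 1, had 5.57 in WT, not well above background, and 451 in KO, at least 31.9-fold higher, while its other probe was on neither array well above background. Gsdme, another gasdermin cut by caspases, had 273 in WT and 993 in KO, 3.60-fold higher.

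On the death receptor side all 14 listed genes were well above background on both arrays. One was at least 2-fold higher, 2 were lower and 11 lay between (median 0.033). Fas was the most different, with 3564 in WT and 901 in KO over 10 spots, 3.99-fold lower. Tnfrsf25, the death receptor DR3, had 8927 and 4359, 2.07-fold lower. Mlkl, the effector of necroptosis, had 2388 and 4893, 2.03-fold higher. The adaptor gene Fadd had 1200 in WT and 979 in KO (log2 difference -0.31, but 0.0016 by its other, dimmer probe), and Cflar 5477 and 5441. Casp8 (-0.72) thus stood with a lower Fas and a nearly level Cflar on these arrays.

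Of 10 listed genes of the apoptosome and of caspase inhibitors, 9 lay between the limits, from Birc2 at -0.58 to Bid at 0.64, and Birc5, the mitotic inhibitor of apoptosis survivin, was 2.08-fold lower (52233 in WT and 25368 in KO), with a list median of -0.20. Apaf1, the scaffold of the apoptosome, had 1069 in WT and 929 in KO (log2 difference -0.22), although another of its 3 probes, of signals under 100, gave 0.58. Cycs, cytochrome c, had a log2 difference of 0.20 (0.44 and 0.45 by its other probes) and Xiap, which binds and blocks caspases, of -0.14. The PIDDosome genes lay on the same side as Casp2, with -0.35 for Pidd1 and -0.92 for Cradd (3254 in WT and 1734 in KO).

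Among 10 apoptotic caspase substrates, 2 were at least 2-fold higher and 8 lay between (median -0.072). Lmna, the lamin A gene, had 1963 in WT and 21343 in KO, 10.8-fold higher, and its 3 probes gave 3.43 to 3.64 on the log2 scale. Gsn, gelsolin, was 2.48-fold higher, with 17388 and 43557. Parp1, a classical substrate of executioner caspases, had a log2 difference of -0.090. Of 12 endoplasmic reticulum stress genes none passed the limit, 10 were above 0 and the median was 0.50. They ranged from Xbp1 (-0.21) and Ddit3 (-0.18), the 2 below 0, up to Hspa5 (0.81) and Calr (0.91).

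**Figure D5:**
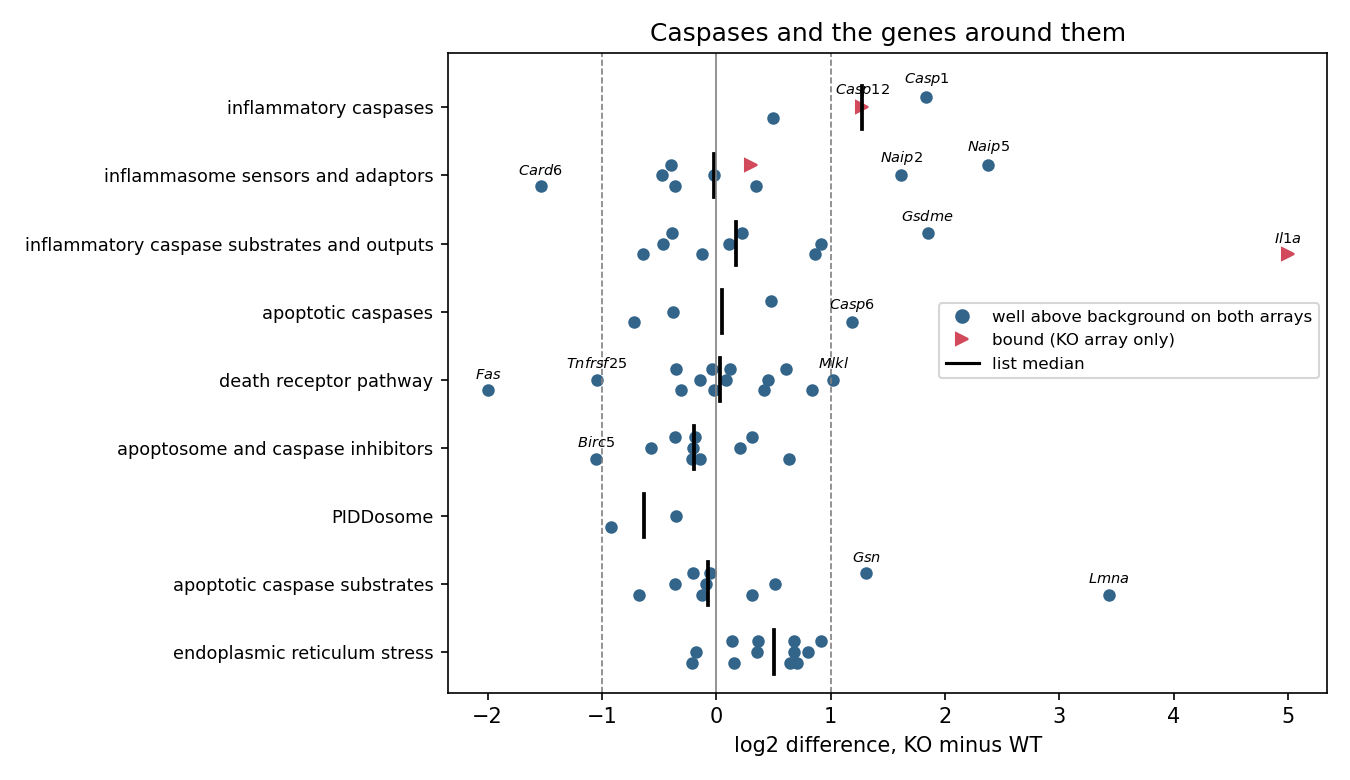
Log2 difference, KO minus WT (x axis), of each gene in the caspase groups and in 7 lists of genes around them (rows), with triangles for bounds, black bars for list medians and dashed lines at the 2-fold limit. Genes past the limit are named. The inflammatory caspases have the highest median (1.28), and the lists around them have medians between -0.64 and 0.50.

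Markers of other cells were read on both arrays. Some were at least 2-fold higher in KO, and others were level or lower. Of 12 macrophage and monocyte markers, 11 had a probe and 8 were read on at least 1 array. Cd14, Fcgr3 and Adgre1 were past the 2-fold limit in KO, and Cd14 read 35 and 256. Fcgr3 and Adgre1, not well above background in WT, were at least 9.50-fold and at least 5.08-fold higher. The other Adgre1 probe was on neither array well above background. Over the 8 markers read, the summed signal was 369 in WT and 689 in KO when Ly6c2 was left out. Ly6c2, which T cells also express, took the sum to 90105 and 115096. Mpeg1 and C1qb, the brightest of these markers in WT apart from Ly6c2, were not higher in this way. By its brightest probe Mpeg1 was lower in KO (log2 difference -0.64), and C1qb was nearly level (0.0025). Csf1r, also by its brightest probe, was dim (27.3 and 21.0). Lyz2 read 19.5 in WT and a signal not well above background in KO. Itgam, Cd163 and C1qa were not well above background on either array. Of 6 neutrophil markers only Mpo was read, at 43.1 in WT and 31.3 in KO.

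Dendritic cell markers summed to 170 in WT and 788 in KO, of which Itgax made up most in KO (20.0 and 623, 30.8-fold higher), while Flt3 was within 2-fold and Siglech was not well above background. Xcr1 and Zbtb46 were within 2-fold by 1 probe each, but their other probes were at least 2.65-fold and at least 7.72-fold lower in KO. Natural killer markers summed to 2295 and 9056, with 3 of 6 at least 2-fold higher. These were Fcer1g (669 in WT and 5087 in KO, 7.54-fold higher) and Tyrobp (253 and 1229, 4.82-fold higher), which myeloid cells also express, and Klrb1c (129 and 700, 5.39-fold higher). Klrd1, which added most to the sum in WT, read 1198 and 1959. Mast cell and basophil markers summed to 103 and 648, with Cpa3, Mcpt8 and Fcer1a of the 6 at least 2-fold higher, and B cell markers to 1263 and 2255, with 1 of 6, Ms4a1, past the limit and Pax5 not well above background. The CD8 marker Cd8a had 312 in WT and 3213 in KO. The part of other cells in the caspase differences was not tested.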

How the data were processed

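Total RNA (500 ng) was amplified and labelled with Cy3 and hybridised to 2 one-colour Agilent mouse arrays annotated on mm9, per the labels' protocols and the file headers. The authors deposited the processed intensity of each spot, made with Feature Extraction 10.7.3.1 per the file headers, background-subtracted on a linear scale with no scaling between arrays. The authors also deposited log2 values. Set against the scanner signals, these matched log2 of that signal, less an offset for each array, to within 0.01 for 99.7% of probes, with column medians of -3.97 (WT) and -3.90 (KO).

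Flagged outlier spots were left out (115 on WT, 103 on KO), no spot was saturated, and log2 signals were scaled to each array's 75th percentile over non-control spots. Accessions were named through RefSeq's GRCm38.p6 gene table, which matched 27043 of 41164 probes. Of the probes of a gene that passed background on either array, the one of highest mean log2 level was used. A gene dim on 1 array got a bound: its bright level less that array's detection floor (the lowest level well above background) or its own dim level, whichever was higher. "Higher" and "lower" counts use a 2-fold limit. The design was 1 array against 1, with no test, and levels of different probes were set together only in the summed signals of marker lists.

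The members, gene lists and the rule for named genes were chosen with earlier results of these data known. The rule names every member, every listed gene at least 2-fold apart, and a set of genes fixed by name, some of which are not reported here. Alternatives were normexp (offset 50, limma 3.58.1) on median signals, with and without replacing local backgrounds over 200, median scaling, quantile normalization, loess, the authors' values, the mean over probes, 2 other filters on dim probes, kept flags and a 1.5-fold limit. Steps were tested on simulated data. The number of arrays limits the precision.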

Additional observations from a re-analysis of the deposited data

How the results depend on the processing

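Over the alternatives that gave a value, Casp1 (1.76 to 2.01 on the log2 scale) and Casp6 (1.11 to 1.40) stayed at least 2-fold higher in KO, Casp4 (0.42 to 0.70) and Casp9 (0.40 to 0.65) stayed above 0, and Casp8 (-0.80 to -0.48) and Casp2 (-0.45 to -0.17) below 0, all within the 2-fold limit. Casp12 was past the limit in 7 of its 8 alternatives, but all 7 kept the background subtraction of the deposited signal. The mean over probes could not change any member, because each had 1 probe. Casp12 had no value after normexp on median signals or when both arrays had to be well above background. There, and with aberrant backgrounds replaced, 2 members were at least 2-fold higher. At a 1.5-fold limit 1 member, Casp8, was lower. The gap between inflammatory and apoptotic medians was 1.79 with no filter on dim probes and 0.42 after normexp with aberrant backgrounds replaced. With no filter Casp12 (2.48) lay above Casp1, and the inflammatory median was the Casp1 value (1.84). With aberrant backgrounds replaced Casp12 (0.26) lay below Casp4, and the inflammatory median was the Casp4 value (0.49). Over all genes, 1458 were higher and 694 lower. These counts were 601 and 1682 after normexp, 760 and 369 with aberrant backgrounds replaced, 2338 and 1712 at 1.5-fold, and 2121 and 1113 with no filter. Local backgrounds over 200 were found at 6 spots in WT and at none in KO. No paired analysis was possible because each genotype has 1 sample. Signal over background limits Casp12 alone among the members.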
